A study of Mus musculus with 6 samples.

Results

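Apoe, Mbp, Chgb and Gabrg1, 4 genes known for their expression in glia and neurons of the brain, were followed in the hippocampus of mice with and without Nrf2. They were chosen by name, with earlier results of these data known. Each has 1 mRNA probe with 10 spots among the 50 mRNA probes that each array carries beside 14236 probes for circular RNAs (circRNAs). The study profiled 6 male ICR mice aged 3 to 4 months, 1 array per mouse: 3 were wild type and 3 carried a knockout of the Nrf2 gene, which encodes a transcription factor of antioxidant and detoxification genes. The labels name no further allele, treatment or Cre driver, and do not say how the knockout was made. Total RNA of the hippocampus had been digested with RNase R, which degrades linear RNA, before random-primed labelling with Cy3. The mRNA probes therefore read linear transcript that outlasted the digestion, or circular forms of the same exons, and these cannot be told apart here. In such bulk tissue fewer cells of a type and less RNA per cell cannot be told apart.

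The genes stand for different parts of hippocampal tissue. Astrocytes make most of the apolipoprotein E that carries lipid between brain cells, and oligodendrocytes wrap axons in myelin whose layers are held together by myelin basic protein. Chromogranin B is packed with peptides and hormones into the dense-core granules of neurons and endocrine cells. GABA type A receptors are chloride channels built from several subunits, of which the γ subunit shapes the response to benzodiazepines, and Gabrg1 encodes a γ subunit of restricted distribution in the brain.

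None of the 4 genes passed an adjusted p of 0.05 between knockout and wild type. Apoe was 1.07-fold higher in the knockout (log2 fold change 0.10, SE 0.192). Mbp was 1.28-fold lower (-0.36, SE 0.359), Chgb 1.54-fold lower (-0.62, SE 0.284) and Gabrg1 3.72-fold lower (-1.89, SE 0.655). The Gabrg1 value includes knockout 3, where its probe was not above background, and it was -1.12 without that array and -0.45 with normexp background correction. The low values of Mbp, Chgb and Gabrg1 lay mainly in knockout mouse 3, with knockout 2 also low for Chgb and Gabrg1, while knockout 1 differed from the wild-type mean by 0.10 for Apoe, 0.13 for Mbp, -0.07 for Chgb and -0.50 for Gabrg1. Signals are given as log2 of the spot signal minus that of the 75th percentile of circRNA probes on the same array, averaged over the 10 spots of a probe. Levels of different probes are not compared, since probes differ in how well they bind.

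The scanner headers set one condition on these comparisons. The 3 wild-type arrays and knockout 1 were read in scan 1, and knockouts 2 and 3 in scan 2. Genotype within 1 scan therefore rests on knockout 1 alone, and the part of the scan in the values of knockouts 2 and 3 was not tested. The median signal of the 44 mRNA probes tested also moved with genotype, at -3.09, -2.99 and -2.91 in wild types 1 to 3 and at -3.38, -3.90 and -3.31 in knockouts 1 to 3. How far RNase R had digested linear RNA on each array is not known here, and its part in these values was not tested. The array's 75th percentile itself was lowest on wild type 3, at 231 intensity units, against 331 to 481 on the other arrays. Of 84 marker genes listed for neurons, GABA receptors, myelin, astrocytes, microglia and vessels or blood, only these 4 have a named mRNA probe, so the 8 microglial and 9 vascular, choroid plexus and blood markers were not measured here. The Apoe, Mbp and Chgb probes were well above background, by the scanner software's own flag, on all 60 of their spots, and Gabrg1 on 38 of 60.

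**Figure D1:**
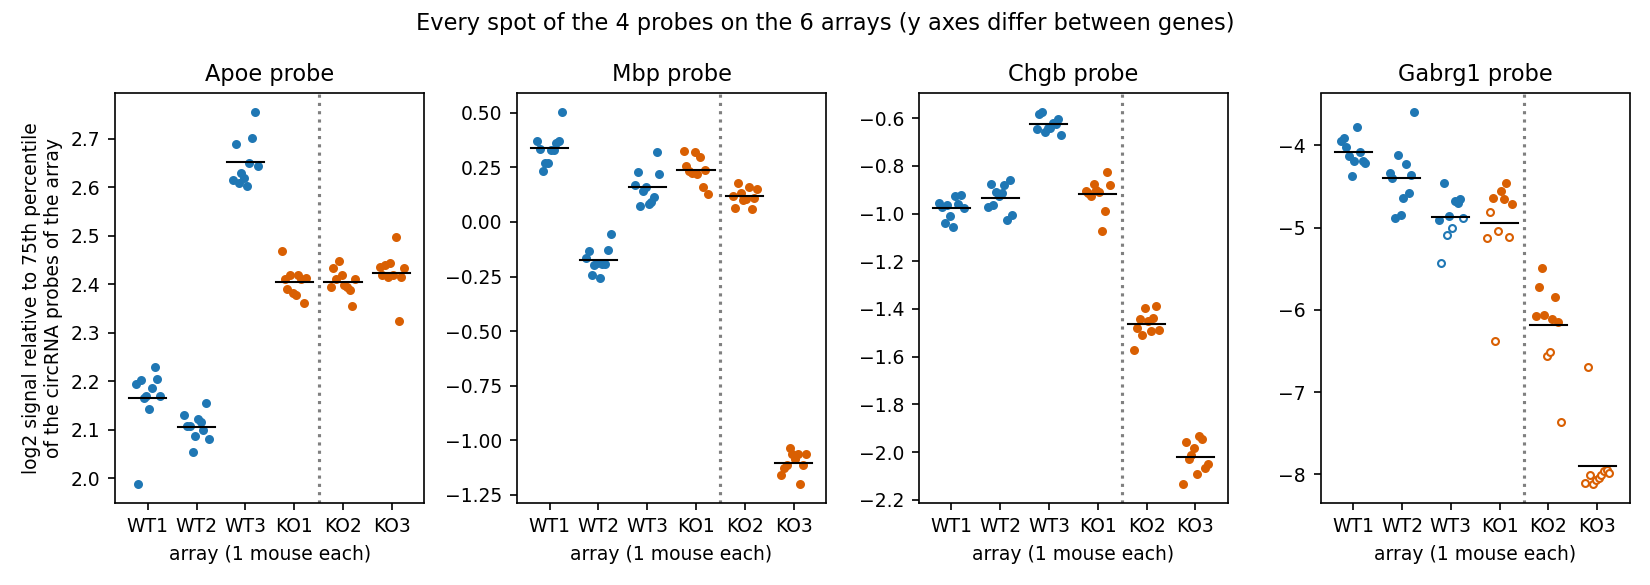
Scaled log2 signal (relative to the circRNA 75th percentile, y axis, own range per gene) of each of the 10 spots of the Apoe, Mbp, Chgb and Gabrg1 probes on wild-type arrays (WT1 to WT3, blue) and knockout arrays (KO1 to KO3, orange). Filled points are spots well above background, open points are not, and black lines are the mean of the spots. Apoe on the knockout arrays lies inside the wild-type range, knockout 3 is the lowest array for the other genes, and no spot of Gabrg1 on knockout 3 is well above background.

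Nrf2 acts on DNA through the antioxidant response element. The 250 bases before the transcription start in RefSeq (GRCm38.p6) are therefore shown for Apoe, Chgb and Gabrg1. Mbp had no entry among the promoter windows, and sequence further from the starts was not searched. The windows are chr7:19699189-19699438 on the minus strand for Apoe (the first of 3 starts listed), chr2:132781392-132781641 on the plus strand for Chgb and chr5:70842618-70842867 on the minus strand for Gabrg1. Capitals mark a match to a searched motif.
Apoe: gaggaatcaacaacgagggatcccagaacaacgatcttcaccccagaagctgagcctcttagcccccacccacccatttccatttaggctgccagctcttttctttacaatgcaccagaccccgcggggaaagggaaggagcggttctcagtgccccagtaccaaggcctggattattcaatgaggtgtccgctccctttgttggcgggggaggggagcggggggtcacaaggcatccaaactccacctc
Chgb: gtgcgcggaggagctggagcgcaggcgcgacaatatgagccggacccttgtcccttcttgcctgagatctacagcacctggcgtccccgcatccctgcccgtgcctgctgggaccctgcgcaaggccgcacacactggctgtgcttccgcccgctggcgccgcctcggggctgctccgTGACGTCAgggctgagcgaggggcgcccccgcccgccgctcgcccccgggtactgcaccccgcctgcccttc
Gabrg1: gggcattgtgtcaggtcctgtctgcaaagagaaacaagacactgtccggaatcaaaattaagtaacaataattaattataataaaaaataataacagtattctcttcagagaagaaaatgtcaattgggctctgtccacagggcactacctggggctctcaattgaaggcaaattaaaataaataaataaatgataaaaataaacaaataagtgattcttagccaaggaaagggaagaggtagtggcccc
The core of the antioxidant response element, TGACNNNGC searched on both strands, has no match in these 3 windows, and 10.2% of the 32851 windows of the same length in the RefSeq table hold one. The cAMP response element TGACGTCA reads the same on both strands and begins with TGAC, like the other motif. It occurs in the Chgb window and in 1.55% of all windows. The Chgb match begins 72 bases before the start and such elements are a known feature of granin gene promoters. The windows differ in base composition, with 57.2% G or C for Apoe, 72.8% for Chgb and 35.6% for Gabrg1, against a median of 52.4% over all windows. No measurement here bears on binding to these sequences.

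Gabrg1, the receptor subunit, was the only member with spots that were not well above background. Its log2 signal was -4.09, -4.40 and -4.87 in wild types 1 to 3, against -4.95, -6.19 and -7.89 in knockouts 1 to 3. All knockout arrays were below all wild-type arrays, although knockout 1 and wild type 3 differed by less than the SD of their spots, which was 0.555 on knockout 1 and 0.272 on wild type 3. The wild-type mean was -4.45 ± 0.39 and the knockout mean -6.34 ± 1.48 (SD, n = 3 each). The log2 fold change of -1.89 had a 95% interval of -3.42 to -0.37 and did not pass in limma (unadjusted p = 0.0211, adjusted p = 0.120 over all 13441 probes tested).

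The size of this change depended on knockout 3, where Gabrg1 could not be told from background. The median raw brightness of its spots there was 20.0 intensity units against a local background of 20.5, a ratio of 0.953, and 0 of 10 spots were well above background. On wild-type arrays 1 to 3 the same ratio was 2.42, 2.37 and 1.80, with 10, 10 and 6 spots well above background. Knockout 1 had a ratio of 2.33 with 5 such spots, and knockout 2 a ratio of 1.30 with 7. Thus 2 of 3 knockout arrays gave a measured level by the rule of at least 50% of spots. Without knockout 3 the log2 fold change of Gabrg1 was -1.12 (SE 0.407, limma adjusted p = 0.203), and without knockout 1 it was -2.59 and passed (adjusted p = 0.0285). In that last fit 2021 of 13435 probes passed and both knockout arrays belong to scan 2, so that genotype and scan cannot be told apart.

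The Gabrg1 change was smaller after another reading of the spots, in which the background correction, the offset and the spot signal were changed together. With normexp correction and an offset of 50 intensity units, which compresses dim signals, and with the median in place of the processed spot signal, its log2 signal was -2.52, -2.54 and -2.19 in the wild-type mice and -2.67, -3.12 and -2.82 in the knockouts. The groups did not overlap in this reading. They did overlap in other readings, where knockout 1 lay above wild type 3. These were quantile normalization, with or without normexp, and the median of a probe's spots in place of their mean. The log2 fold change with normexp and the 75th percentile was -0.45 (SE 0.176, limma adjusted p = 0.173). With normexp followed by quantile normalization it was -0.21 (SE 0.107, adjusted p = 0.252). Without any scaling between arrays it was -1.62 and passed (limma adjusted p = 0.00717), while the median of all probes was then 0.31. In that fit 481 of 13441 probes passed, and limma gave each of the 4 genes the same SE of 0.429. The median of the array's 15 negative probes, relative to the same 75th percentile, was -7.44, -7.39 and -6.92 in wild-type and -6.96, -8.43 and -7.94 in knockout mice. It was therefore lowest in scan 2, and its part in the low Gabrg1 values there was not tested.

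Chgb, the granule protein of neurons, was bright enough to be read on every array. Its log2 signal was -0.98, -0.93 and -0.63 in wild types 1 to 3, against -0.92, -1.46 and -2.02 in knockouts 1 to 3. Knockouts 2 and 3 were below all wild-type arrays, whereas knockout 1 lay among them, and so the groups overlapped. The wild-type mean was -0.85 ± 0.19 and the knockout mean -1.47 ± 0.55 (SD, n = 3 each). The log2 fold change of -0.62 had a 95% interval of -1.28 to 0.04 (limma unadjusted p = 0.0612, adjusted p = 0.203). Before any scaling the median spot signal of Chgb was 205, 197 and 149 intensity units in wild type and 204, 174 and 81.6 in knockout, so knockout 3 was lowest there too. The raw signal of the dimmest array was still 4.92 times its local background.

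Among all the settings tried, Chgb passed only when knockout 1 was left out. Without knockout 1 the log2 fold change was -0.90 (SE 0.229) and passed (limma adjusted p = 0.0496), as did 2021 of 13435 probes, but then all knockout arrays belong to scan 2, and genotype and scan cannot be told apart. Without knockout 3 it was -0.35 (adjusted p = 0.422). On knockout 1, which shared its scan with the wild-type arrays, the log2 signal of Chgb differed from the wild-type mean by -0.07.

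Mbp, the myelin protein gene, differed between genotypes through 1 mouse. Its log2 signal was 0.34, -0.18 and 0.16 in wild-type and 0.24, 0.12 and -1.10 in knockout mice. Knockouts 1 and 2 lay inside the wild-type range and knockout 3 differed from the wild-type mean by -1.21. The means were 0.11 ± 0.26 and -0.25 ± 0.74 (SD, n = 3 each), and the log2 fold change of -0.36 had a 95% interval of -1.19 to 0.48 (limma adjusted p = 0.546). Without knockout 3 the change turned to 0.07 (SE 0.210, adjusted p = 0.861). The 10 spots of knockout 3 ran from -1.20 to -1.04, entirely below the spots of every other array, whose lowest was -0.26, and so the low value was shared by all of them. Unscaled, the median spot signal of Mbp on knockout 3 was 155 intensity units, against 450 and 521 on knockouts 1 and 2 and 506, 328 and 256 in wild type.

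Apoe, the lipid carrier of astrocytes, differed little between genotypes in these values. Its log2 signal was 2.17, 2.11 and 2.65 in wild-type and 2.41, 2.41 and 2.42 in knockout mice. The knockout mice lay between the wild-type mice, and the means were 2.31 ± 0.30 and 2.41 ± 0.01 (SD, n = 3 each). The log2 fold change of 0.10 had a 95% interval of -0.34 to 0.55, a change between 1.27-fold lower and 1.46-fold higher, and did not pass (limma adjusted p = 0.757). This does not show that Apoe was equal, only that a change beyond these bounds lies outside the interval.

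The order of the wild-type arrays for Apoe changed with the scaling. Before scaling, wild type 3 had the lowest median spot signal, 1435.5 intensity units against 1819 and 1611 on wild types 1 and 2, and after division by its low 75th percentile it had the highest. Knockouts 1 to 3 had 2031, 2549 and 1780 intensity units before scaling. On knockout 3, where the other genes were lowest, Apoe stood 0.12 above the wild-type mean.

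The spread between spots of a probe on the same array was mostly below that between mice. The SD over 10 spots was 0.026 to 0.067 for Apoe, 0.039 to 0.078 for Mbp, 0.032 to 0.068 for Chgb and 0.175 to 0.555 for Gabrg1. The SD over the mice of a genotype lay above these ranges except for Apoe in the knockouts, at 0.01, and for Gabrg1 in the wild types, at 0.39. When the arrays were compared spot position by spot position, the knockout mean was below the wild-type mean at 10 of 10 positions for Gabrg1, Chgb and Mbp, and above it at 10 of 10 for Apoe. The difference over positions ran from -2.46 to -1.16 for Gabrg1, from -0.69 to -0.57 for Chgb, from -0.48 to -0.26 for Mbp and from 0.0049 to 0.16 for Apoe. Spots of 1 array share the mouse and the labelling, so these counts speak of the reading of a probe and not of the number of mice.

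Set beside all probes, the 4 genes did not stand out by their calls. In limma 0 of the 4 passed an adjusted p of 0.05, where 0.149% of all 13441 probes did, and 1 of the 4, Gabrg1, had an unadjusted p under 0.05, where 27.3% did. Of the 44 mRNA probes, 21 had an unadjusted limma p under 0.05 and 0 passed after adjustment. The genotypes did not overlap, with the knockout lower, for 1 of 4 members and for 17.3% of the probes measured on all 6 arrays. The median log2 fold change was -0.49 over the members, 0.04 over all probes tested and -0.59 over the 44 mRNA probes, of which 39 were lower and 5 higher at any p. Among the mRNA probes, 20 had a lower log2 fold change than Chgb, 31 than Mbp and 42 than Apoe. Over all probes 12.6% were lower than Chgb, 22.8% than Mbp and 56.1% than Apoe. Gabrg1 is given no rank, since its knockout mean includes an array at background.

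**Figure D2:**
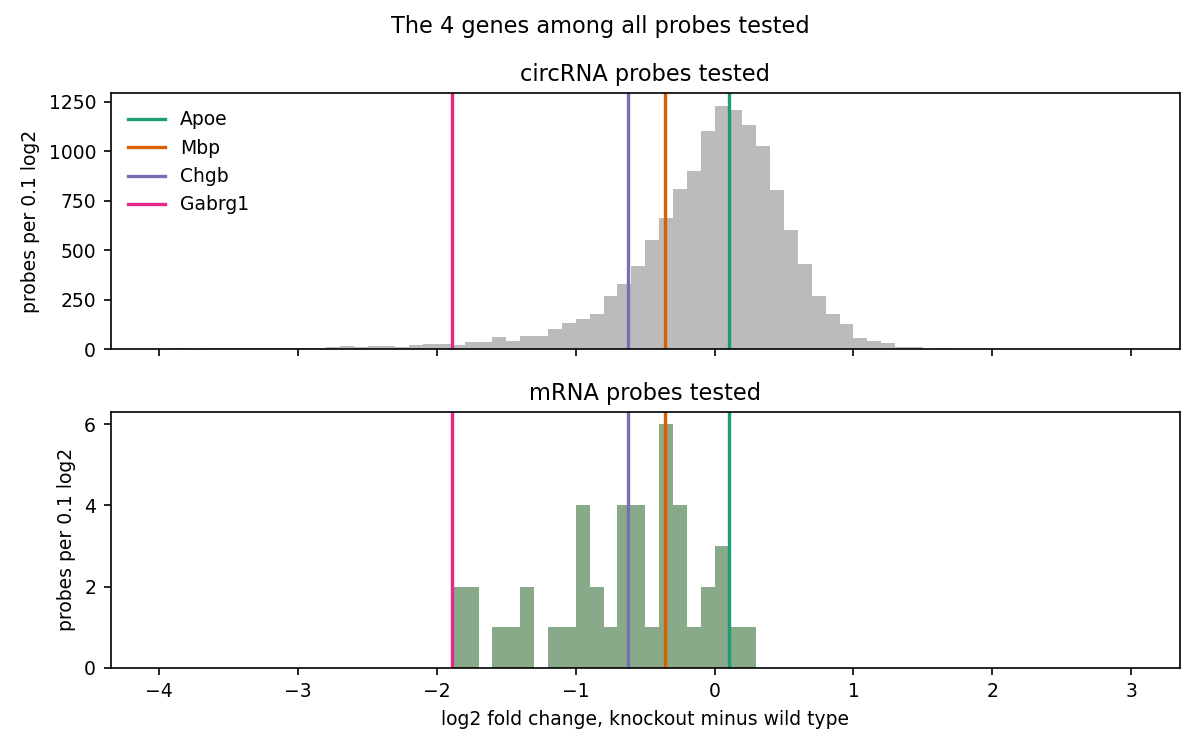
Number of probes per 0.1 of log2 fold change (knockout minus wild type, x axis) for the 13397 circRNA probes tested (upper) and the 44 mRNA probes tested (lower), with vertical lines at Apoe, Mbp, Chgb and Gabrg1. Apoe lies near the middle of the circRNA probes and near the upper end of the mRNA probes, and Gabrg1, whose value includes an array at background, lies at the lower end of the mRNA probes.

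Differences between members within an array do not move when 1 value is subtracted from a whole array, as in the scaling used here, although quantile normalization does move them. They were compared as well, for all 6 pairs. Chgb minus Apoe was -3.14, -3.04 and -3.28 in wild-type and -3.32, -3.87 and -4.44 in knockout mice. The groups did not overlap, although knockout 1 and wild type 3 were closer than the SD of the Chgb spots on knockout 1 (0.068), and the change was -0.73 (exact permutation p = 0.1, two-sided, which is the lowest that 3 against 3 can give, and adjusted p = 0.3 over 6 pairs). It was -0.17 within scan 1 and -0.44 without knockout 3. Gabrg1 minus Mbp was -4.42, -4.23 and -5.03 in wild type and -5.19, -6.31 and -6.79 in knockout, again without overlap (change -1.54, exact permutation p = 0.1, adjusted p = 0.3). Here knockout 1 and wild type 3 were closer than the SD of the Gabrg1 spots on knockout 1 (0.555), and Gabrg1 on knockout 3 was at background. With normexp and quantile normalization this change was 0.09, of opposite sign.

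The other 4 pairs overlapped. Gabrg1 minus Apoe had means of -6.76 in wild type and -8.76 in knockout, and Gabrg1 minus Chgb changed by -1.27 (exact permutation p = 0.2, adjusted p = 0.3 each). The latter turned to 0.036 with normexp and to 0.26 with normexp and quantile normalization. Chgb minus Mbp changed by -0.27 (exact permutation p = 0.4, adjusted p = 0.48), less than its SD of 0.31 in wild type and 0.34 in knockout. Mbp minus Apoe changed by -0.46 (exact permutation p = 0.5, adjusted p = 0.5), and was 0.03 within scan 1. This exact test cannot go below 0.1 with 3 against 3 arrays and so could not have passed. It does not settle whether the members of a pair changed equally. How often other pairs of probes did not overlap was not computed, so the pairs without overlap cannot be set against a share.

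**Figure D3:**
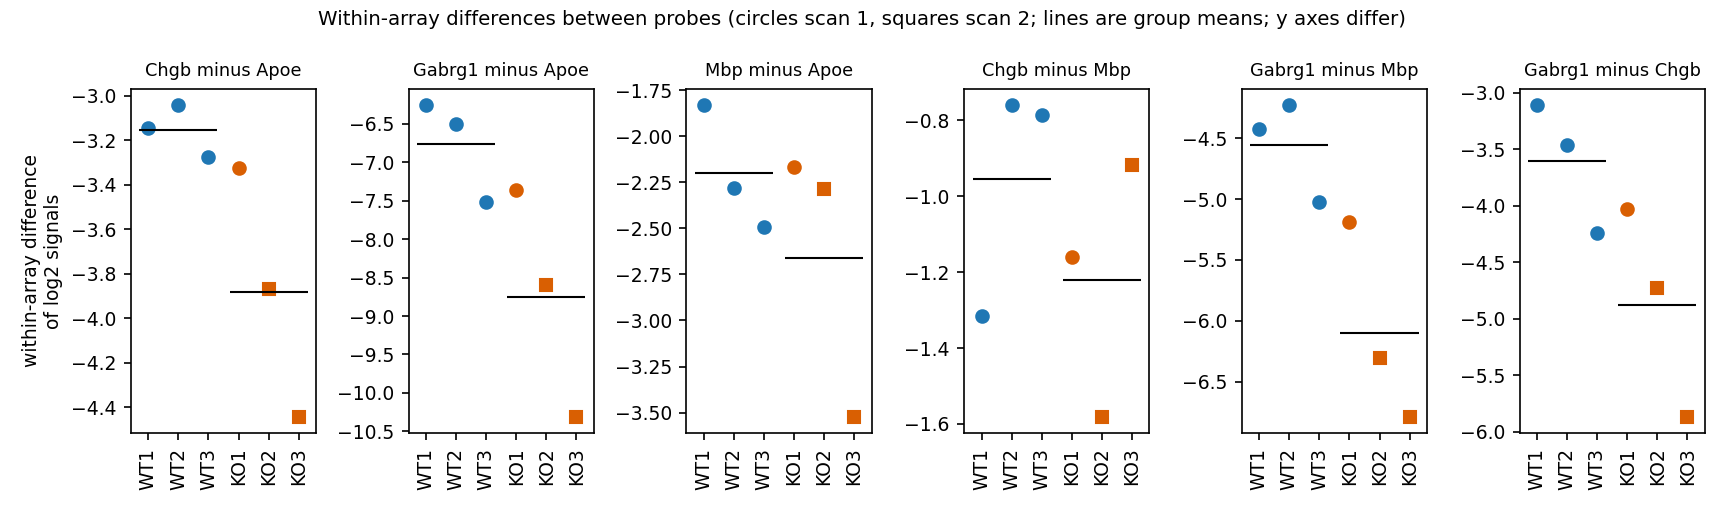
Difference of the log2 signals of 2 members on the same array (y axis, own range per pair) for wild-type arrays (WT1 to WT3, blue) and knockout arrays (KO1 to KO3, orange), with circles for scan 1, squares for scan 2 and lines at the group means. Only Chgb minus Apoe and Gabrg1 minus Mbp have no overlap between genotypes, and in both knockout 1 lies nearest to the wild-type arrays. Gabrg1 on knockout 3 is at background, and the share of other probe pairs without overlap was not computed.

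The profiles over the 6 arrays were also matched with those of the other 37 mRNA probes that have a symbol and values on all arrays. Likeness was measured as the root mean square (RMS) difference of 2 profiles after each was centred on its own mean, given as a description with no test. Apoe was nearest to Actb, the cytoskeletal actin gene, at an RMS of 0.13, and then to Uhrf1bp1l at 0.17, against a median of 0.46 over the 37. The log2 signal of Actb was 0.80, 0.84 and 1.25 in wild type and 1.22, 0.95 and 0.82 in knockout, with a log2 fold change of 0.04. It shared with Apoe the high value of wild type 3.

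Mbp was nearest to Chgb (RMS 0.30) and then to Rab5a, a small GTPase of early endosomes (0.31), against a median of 0.53. Rab5a was lowest on knockout 3, at -5.09, and lay between -4.77 and -4.33 on the other arrays. Chgb was nearest to Nup50, a protein of the nuclear pore (0.20), against a median of 0.41. Nup50 was -3.81, -3.96 and -3.75 in wild type and -3.55, -4.51 and -4.63 in knockout, so here too knockout 1 lay apart from knockouts 2 and 3.

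Gabrg1 lay further from every other probe, and the nearest were Atg3, an enzyme of autophagosome formation (RMS 0.57), and the olfactory receptor gene Olfr1307 (0.58), against a median of 1.11. Atg3 was -2.83, -2.41 and -3.56 in wild type and -2.64, -5.59 and -6.02 in knockout, with 3 of 10 spots well above background on knockout 3. Olfr1307 was 2.24, 1.93 and 0.46 in wild type and 1.66, -0.99 and -1.30 in knockout. In these probes the low values belonged to knockouts 2 and 3, the arrays of scan 2, and knockout 1 lay within the wild-type range. Their log2 fold changes were -1.82 and -1.75, and neither passed (limma adjusted p = 0.199 and 0.204).

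When the scan was fitted as a block, the genotype effect rested on the contrast of knockout 1 with wild type. The log2 fold changes were then 0.10 (SE 0.271) for Apoe, 0.13 (SE 0.474) for Mbp, -0.07 (SE 0.290) for Chgb and -0.50 (SE 0.644) for Gabrg1, none of which passed (limma adjusted p = 0.830 to 0.950). Apoe thus kept its value, Mbp changed sign, and Chgb and Gabrg1 moved toward 0. The reference used for scaling mattered too. When the median of the 44 mRNA probes was set equal on all arrays, a choice made after the values were seen, the median change of all probes moved from 0.04 to 0.57. Apoe was then at 0.64 (limma adjusted p = 0.0995), Mbp at 0.18, Chgb at -0.09 and Gabrg1 at -1.36 (adjusted p = 0.0911). Relative to that median the change of Gabrg1 was -1.93 under either reference, since such a shift moves every probe alike.

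**Figure D4:**
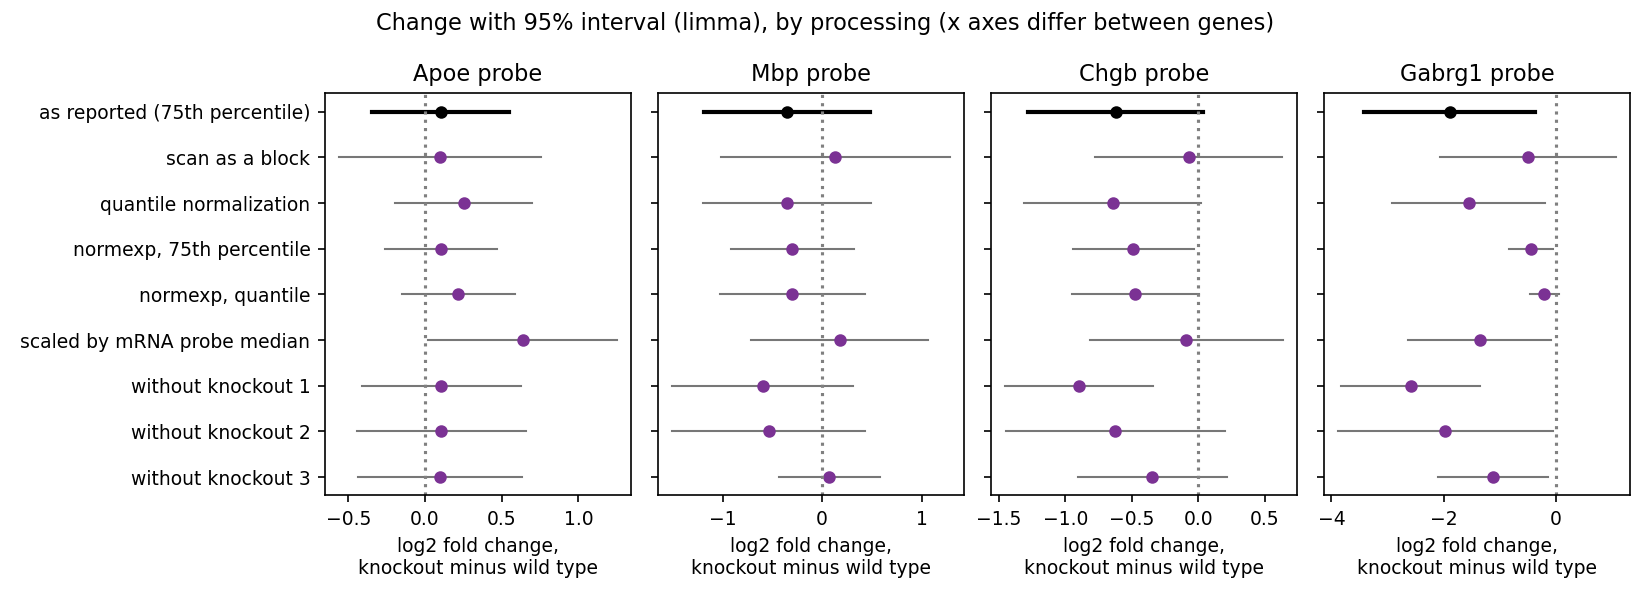
Log2 fold change of knockout minus wild type (x axis, own range per gene) with its 95% interval from limma, for the values as reported (black) and for 8 other ways of processing (purple points). The interval of Apoe crosses 0 in all but the scaling by mRNA probes, Mbp lies on both sides of 0, Chgb moves toward 0 with the scan as a block, and Gabrg1 shrinks with normexp correction.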

How the data were processed

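Each array was read with Agilent Feature Extraction 11.0.1.1 under the protocol GE1_1100_Jul11, per the file headers, and the deposited files hold a spot intensity from which the software had removed background and spatial trend, while arrays were not scaled to each other. The deposited series table of log2 values, made with Feature Extraction and limma per the submitters' processing notes, holds 0 of the 4 genes and was not used for them. Probe names came from transcript accessions matched to RefSeq (GRCm38.p6), where 44 of 50 mRNA probes found a symbol. The headers name an older mouse build, so gene positions are not given, and probe sequences were not used here.

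Spots flagged as non-uniform were left out (0 of the members' spots), none was saturated, and a probe's log2 spot values were averaged after subtraction of the array's 75th percentile over circRNA probes. Probes well above background on at least 3 of 6 arrays (at least 50% of spots) were tested together in limma 3.58.1 (R 4.3.3), two-sided, with genotype as the single term and Benjamini-Hochberg adjustment over all 13441. The fit was tested on simulated data with independent noise and no scan effect, so that test does not cover the scan. Within-array differences between members were compared by exact permutation in scipy 1.17.1, and figures made in Python 3.11.15 (matplotlib 3.10.9).

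The members, marker list and tests were chosen with earlier results of these data known. Text names the 4 members, any other listed marker with a probe (none had one) and the 2 mRNA probes most like each member, of which 1 is not reported here. Alternatives covered scaling, background correction, spot summary and flags, the filter, the variance model, the scan and the replicate number as blocks, and each array left out. Scaling by mRNA probes and leaving out population outlier spots were added after the values were seen. Each array is 1 mouse, per the labels' protocols, and 3 arrays per genotype limit the precision.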

Additional observations from a re-analysis of the deposited data

How the results depend on the processing

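Of 204 recomputed values, 190 were counted as unchanged. For single genes this meant the same direction and the same side of the threshold. Pair changes were judged on direction alone, and the members called on their count. Sizes could still move, as for Chgb at -0.07 with the scan as a block and Gabrg1 at -0.21 with normexp and quantile normalization. Mbp turned to 0.13 with the scan as a block and within scan 1, to 0.071 without knockout 3 and to 0.18 scaled by mRNA probes. Among pairs, the change of Mbp minus Apoe turned to 0.035 with the scan as a block and within scan 1, Gabrg1 minus Mbp to 0.087 with normexp and quantile normalization, and Gabrg1 minus Chgb to 0.036 with normexp and 0.26 with normexp and quantile normalization. Gabrg1 passed at -1.62 with no scaling between arrays (1 member called, limma adjusted p = 0.00717, with 481 of 13441 probes called and a pooled SE of 0.429), where the median of all probes moved to 0.31. Without knockout 1, 2 members were called, Chgb at -0.90 and Gabrg1 at -2.59, as were 2021 of 13435 probes. With each array left out in turn, the ranges were 0.0031 to 0.28 for Apoe, -0.60 to 0.07 for Mbp, -0.90 to -0.35 for Chgb, -2.59 to -1.12 for Gabrg1 and 0 to 2 members called. The causes were not tested.

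Deviations from the group mean in same-numbered mice had r = 0.19, -0.04 and 0.21 over probes. In differently numbered mice r ran from -0.39 to 0.21. Deviations within a group must cancel, so these r values depend on each other. They cannot decide whether the numbers pair the mice. With the replicate number as a block the Gabrg1 change stayed -1.89 (limma adjusted p = 0.0618) and 0 members were called.

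Over all probes 20 passed as reported, against 4 with quantile normalization, 481 unscaled, 425 with normexp, 3195 scaled by mRNA probes, 429 with the replicate block and 2021 without knockout 1. Leaving out wild type 2 gave 372 and wild type 3 gave 5, and the count was 0 with the scan block, within scan 1, with normexp and quantile normalization, outlier spots kept, no filter, or leaving out wild type 1, knockout 2 or knockout 3. Gabrg1 has no value where all 6 arrays had to be well above background.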
